A study of Mus musculus with 6 samples.

Results

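The introns of ribosomal protein genes carry 31 small nucleolar RNAs (snoRNAs) of the length class of C/D box snoRNAs, and reads of all 31 were found in bone marrow cells. They were chosen from 1823 listed features as those whose coordinates equal those of a GENCODE M21 (GRCm38) snoRNA gene and that lie, on the same strand, within a protein-coding gene for a ribosomal protein. A length limit in the rule separates them from longer snoRNAs of these genes: the longest member had 104 nt and the shortest snoRNA above the limit 125 nt. The hosts Rpl13a and Rps3 and the Snord14 family were left out by the rule. The members lie in 15 host genes, 10 of the large ribosomal subunit (Rpl) with 21 members and 5 of the small subunit (Rps) with 10 members. For 16 of them GENCODE gives only a provisional name starting with Gm.

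Small RNA libraries came from mice of the genotypes Mat KO and wildtype, with 3 libraries each, called KO and WT here. The series concerns the imprinted Dlk1-Gtl2 locus. The labelled tissue is bone marrow, and Lin- cells, the marrow fraction depleted of mature blood cells, are named in the design text of the series. The sources used here give neither strain nor age, neither the deleted stretch nor whether libraries came from separate animals, so a p-value reflects only how far these libraries differ, and that may be technical.

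C/D box snoRNAs guide the methyltransferase fibrillarin to ribosomal RNA. A C box near the start and a D box near the end fold together and bind the protein core, and the bases just before the D box, or before an inner D' box, pair with the target RNA and so choose the nucleotide to be methylated on its ribose. In vertebrates most of them are cut out of introns after splicing, and genes for ribosomal proteins and translation factors are common hosts, so that guides of ribosome assembly are transcribed together with ribosome components.

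Several members come as relatives in different introns of one host, and their sequences carry the comparison of levels described further on. The sequences are those of the GENCODE M21 transcripts on GRCm38, 5' to 3', written as DNA, and the capitals mark the longest run common to the set. Gm22455 (chr9:64177123-64177193, plus strand), Gm23344 (chr9:64175048-64175115, plus strand) and Gm22571 (chr9:64175873-64175942, plus strand) lie in introns 6, 2 and 4 of Rpl4 and share 17 bases that include a CTGA, the D box motif.
Gm22455: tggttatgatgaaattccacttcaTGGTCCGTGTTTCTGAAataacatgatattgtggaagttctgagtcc
Gm23344: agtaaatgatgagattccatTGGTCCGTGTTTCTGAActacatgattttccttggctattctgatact
Gm22571: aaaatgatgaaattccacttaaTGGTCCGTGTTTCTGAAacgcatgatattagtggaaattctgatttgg
Snord16a (chr9:64175423-64175521, plus strand), a guide of small-subunit rRNA, and Gm23136 (chr9:64176661-64176759, plus strand) lie in introns 3 and 5 of the same Rpl4 gene, share 22 bases and are identical at 88.9% of their aligned length.
Snord16a: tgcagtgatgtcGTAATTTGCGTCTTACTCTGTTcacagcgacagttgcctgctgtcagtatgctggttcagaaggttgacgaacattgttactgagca
Gm23136: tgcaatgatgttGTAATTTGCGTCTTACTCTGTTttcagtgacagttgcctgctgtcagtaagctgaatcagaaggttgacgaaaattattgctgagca
Gm22879 (chr2:26912218-26912291, plus strand) and Gm24134 (chr2:26912530-26912600, plus strand) lie in introns 4 and 5 of Rpl7a and share 18 bases that include the D box.
Gm22879: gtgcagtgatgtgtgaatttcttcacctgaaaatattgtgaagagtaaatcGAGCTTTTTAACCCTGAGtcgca
Gm24134: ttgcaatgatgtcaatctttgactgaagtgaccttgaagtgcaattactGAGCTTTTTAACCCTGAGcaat
Snord42a (chr11:78181299-78181363, minus strand) and Snord42b (chr11:78183056-78183124, minus strand), guides of small-subunit rRNA, lie in introns 3 and 1 of Rpl23a and also share 18 bases that include the D box.
Snord42a: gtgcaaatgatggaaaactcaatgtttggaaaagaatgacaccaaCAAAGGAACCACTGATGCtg
Snord42b: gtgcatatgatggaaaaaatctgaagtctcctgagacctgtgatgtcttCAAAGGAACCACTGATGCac
Snord73a (chr3:86138791-86138858, minus strand) and Rnu73b (chr3:86140618-86140688, minus strand), which RefSeq names Snord73b and which guide large-subunit rRNA, lie in introns 4 and 3 of Rps3a1 and share 13 bases.
Snord73a: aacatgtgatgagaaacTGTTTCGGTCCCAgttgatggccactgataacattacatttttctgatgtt
Rnu73b: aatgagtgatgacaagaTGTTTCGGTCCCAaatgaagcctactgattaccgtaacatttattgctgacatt

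Sequence relatives occurred within hosts. Of the 465 pairs that 31 members can form, 28 lie in one host, and 11 pairs share a run of at least 12 bases. Those 11 pairs, which hold 16 members in 6 hosts, were all within one host. They include the 3 members of Rpl17, Gm23301, Gm26202 and Snord58b, which share runs of 22 to 30 bases. No member was identical to another listed feature or overlapped one by 80% or more. Snord58b was nearest to a feature outside the members, at 4 edits from Gm22354, and its count is uncertain for that reason. The sources used here do not say how reads with several matches were counted, so counts of near copies such as Snord16a and Gm23136 could share reads.

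Bases that pair with 18S rRNA, the RNA of the small ribosomal subunit, stand in capitals in the next group, shown because the pairing is what makes a C/D box snoRNA a guide. The 18S sequence was the copy of 1849 nt on chromosome 17 in GENCODE, which is annotated on the minus strand, so its reverse complement was used and positions count from the 5' end of that strand. Snord83b (chr15:80078498-80078591, minus strand, Rpl3) and Gm24016 (chr4:3835079-3835146, minus strand, Rps20) were found with the bases directly before the D box. Snord68 (chr8:123103038-123103123, plus strand, Rpl13) and Snord4a (chr11:78181686-78181756, minus strand, Rpl23a) were found through a run that does not stand directly before a CTGA.
Snord83b: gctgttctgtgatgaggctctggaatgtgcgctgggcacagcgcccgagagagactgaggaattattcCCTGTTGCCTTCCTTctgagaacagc
Gm24016: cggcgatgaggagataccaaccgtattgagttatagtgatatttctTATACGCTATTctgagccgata
Snord68: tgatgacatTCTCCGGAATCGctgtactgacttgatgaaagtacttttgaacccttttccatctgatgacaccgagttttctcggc
Snord4a: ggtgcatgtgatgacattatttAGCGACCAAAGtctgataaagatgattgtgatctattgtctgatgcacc

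The rule for a guide match asked for at least 10 base pairs in a row, with at most 1 G-U pair, that start directly before a CTGA, and 4 of 31 members met it (12.9%), against 22 of all 220 listed snoRNAs of this length (10%). In other protein-coding genes 16 of 77 met it (20.8%), in the ribosomal protein genes left out by the rule 1 of 5 (20%), and in long non-coding genes 1 of 90 (1.11%). None of the 31 matched the opposite strand of 18S and none matched 5.8S, where of all 220 the opposite strand was matched by 7 (3.18%) and 5.8S by 0. Snord42a paired over 11 bases and Snord42b over 12, at 18S positions 112 to 122 and 112 to 123, and in each the fifth base before the D box faced position 116, a T in the DNA sequence. The 18S site facing Snord42a reads TGGTTCCTTTG. Gm24016 paired over 11 bases at positions 647 to 657 and Snord83b over 15 bases, 1 of them a G-U pair, at positions 471 to 485. With no box required, 7 members (22.6%) had a run of at least 11 Watson-Crick pairs with 18S and 1 (3.23%) with its opposite strand, a search added after the data were seen. For the 77 snoRNAs of this length in other protein-coding genes the figures were 24 (31.2%) and 1 (1.3%), and for all 220 they were 40 (18.2%) and 36 (16.4%). Most of those 36 came from the 90 in long non-coding genes, where the figures were 7 (7.78%) and 33 (36.7%). The longest were 13 bases in Gm22879 at positions 672 to 684, and 12 bases in Gm24134 at positions 672 to 683 and in Snord68 at positions 431 to 442. In Gm22879 and Gm24134 the run ended 1 base before the D box, and in Snord4a 1 base before an inner CTGA. The rule for a guide match, which allows no base between, did not count these. A match describes letters and shows neither binding nor methylation, and 28S rRNA was not analysed here.

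Box motifs were nearly general. A C box, searched on the RNA strand as NTGATGA with up to 1 mismatch in the first 20 bases, was found in 29 of 31 members, 17 of them without a mismatch. A D box, CTGA in the last 12 bases, was found in 27, and the same 27 had both (87.1%, against 80.5% of all 220 listed snoRNAs of this length). Snord68 had neither in these windows because its annotated start falls inside the C box motif and its annotated end lies beyond the last CTGA. Gm22077 had a C box and no D box, and Gm27326 of Rpl23 lacked both. Lengths ran from 65 to 104 nt with a median of 71, and GC content from 29.6% to 63.3% with a median of 41.5%.

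All 31 lay in introns of the host transcript used, each in an intron of its own, and most sat at a similar distance from the next exon. The median distance from the snoRNA's end to the next exon was 82 nt, and 21 of 31 (67.7%) lay 50 to 100 nt before it. The whole range was 59 to 1803 nt. The distance to the exon before ran from 22 to 1057 nt, with a median of 134 nt. Among snoRNAs of this length in introns of other protein-coding genes, 25 of 73 lay in the same window (34.2%, median 286 nt), and in introns of long non-coding genes 29 of 81 (35.8%, median 1096 nt). The H/ACA-length snoRNAs of ribosomal protein genes, longer and of the class that guides pseudouridylation, had 7 of 22 there (31.8%, median 188 nt). The position was not particular to the members. A list of snoRNAs of this length in 6 genes of translation factors and similar hosts had 7 of 11 in the window (63.6%, median 94 nt). The ribosomal protein genes left out by the rule had 3 of 5 (median 72 nt). These are descriptions of lists and not tests.

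**Figure D1:**
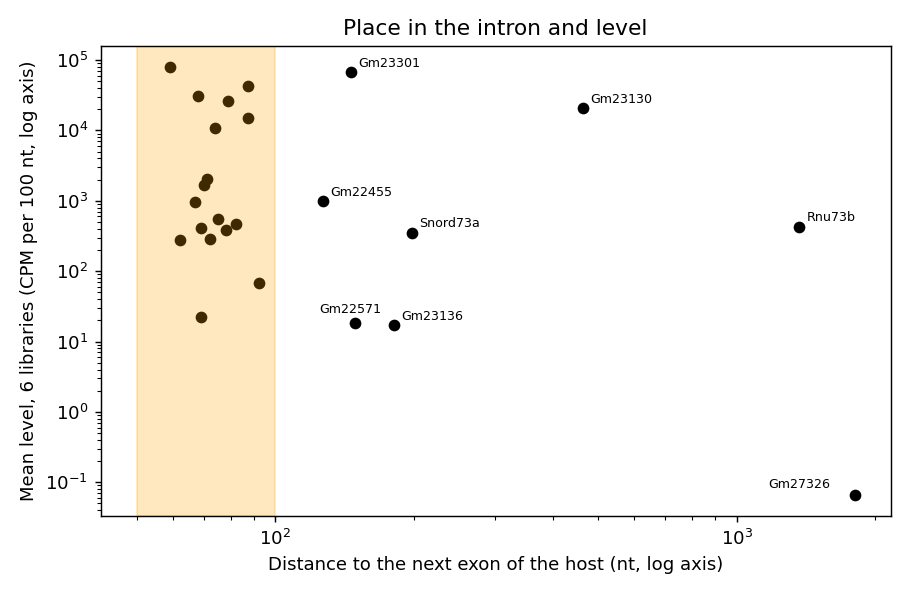
Distance from each snoRNA's end to the next exon of its host (x, nt, log axis) against its mean level over 6 libraries (y, CPM per 100 nt, log axis), with 1 point per snoRNA and the window of 50 to 100 nt shaded. Gm22077, with 1 read in all, and the members not reported singly are not drawn. Most points lie in the window and span levels from 22 to 78671 CPM per 100 nt, and those outside it are named.

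Levels inside and outside the window overlapped. They are given as CPM, the RNA's counts divided by all counts of the library and multiplied by 1000000, and where snoRNAs are compared with each other as CPM per 100 nt of length. The 21 members in the window had a median level of 951 CPM per 100 nt, with a range of 12.6 to 78671, and the 10 farther from the next exon had 391, with a range of 0.00336 to 67294. Gm23301 of Rpl17, 146 nt from the next exon, and Gm23130 of Rps12, 465 nt from it, were among the 7 highest, while Gm24016 of Rps20, at 69 nt, had 22 CPM per 100 nt.

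Together the 31 members took 23.5% to 27.7% of all counts. Their summed level was 276720, 234776 and 249920 CPM in KO replicates 1 to 3 and 254815, 270199 and 265717 CPM in WT replicates 1 to 3, or 25.4% ± 2.1 and 26.4% ± 0.8 of a library (SD, n = 3 each). KO replicate 2 was the lowest and KO replicate 1 the highest of the 6, so the genotypes overlapped. In bulk libraries fewer cells of a type and less RNA per cell cannot be told apart, and CPM is relative to the other RNAs of the library. In comparison, 77 snoRNAs of this length in other protein-coding genes took 14.63% to 15.55% of a library, 90 in long non-coding genes 50.32% to 56.15%, and the 22 H/ACA-length snoRNAs of ribosomal protein genes 0.13% to 0.22%. The gel step kept PCR products of 170 to 370 bp, so what these libraries hold can also depend on RNA length. The part of this step in the shares was not tested.

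Levels spanned several orders of magnitude and their order held across libraries. Spearman's rho between libraries over the 31 members was 0.978 to 0.997 in all pairs of libraries, a description of RNAs counted in the same libraries. In each library the 4 highest members held 64.4% to 67.9% of all member counts, and in all 6 these were Snord68, Gm23301, Gm23969 of Rpl7a and Snord21 of Rpl5, a guide of large-subunit rRNA. The 10 highest members had means of 10854 to 78671 CPM per 100 nt. The 5 lowest of the tested members, Snord4a, Gm24016, Gm22571 and Gm23136 among them, had 12.6 to 68.9. Gm27326 had 19 reads in all 6 libraries and Gm22077 of Rpl3 had 1, in WT replicate 1, where 3 counts in a library correspond to 0.0563 to 0.0661 CPM.

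**Figure D2:**
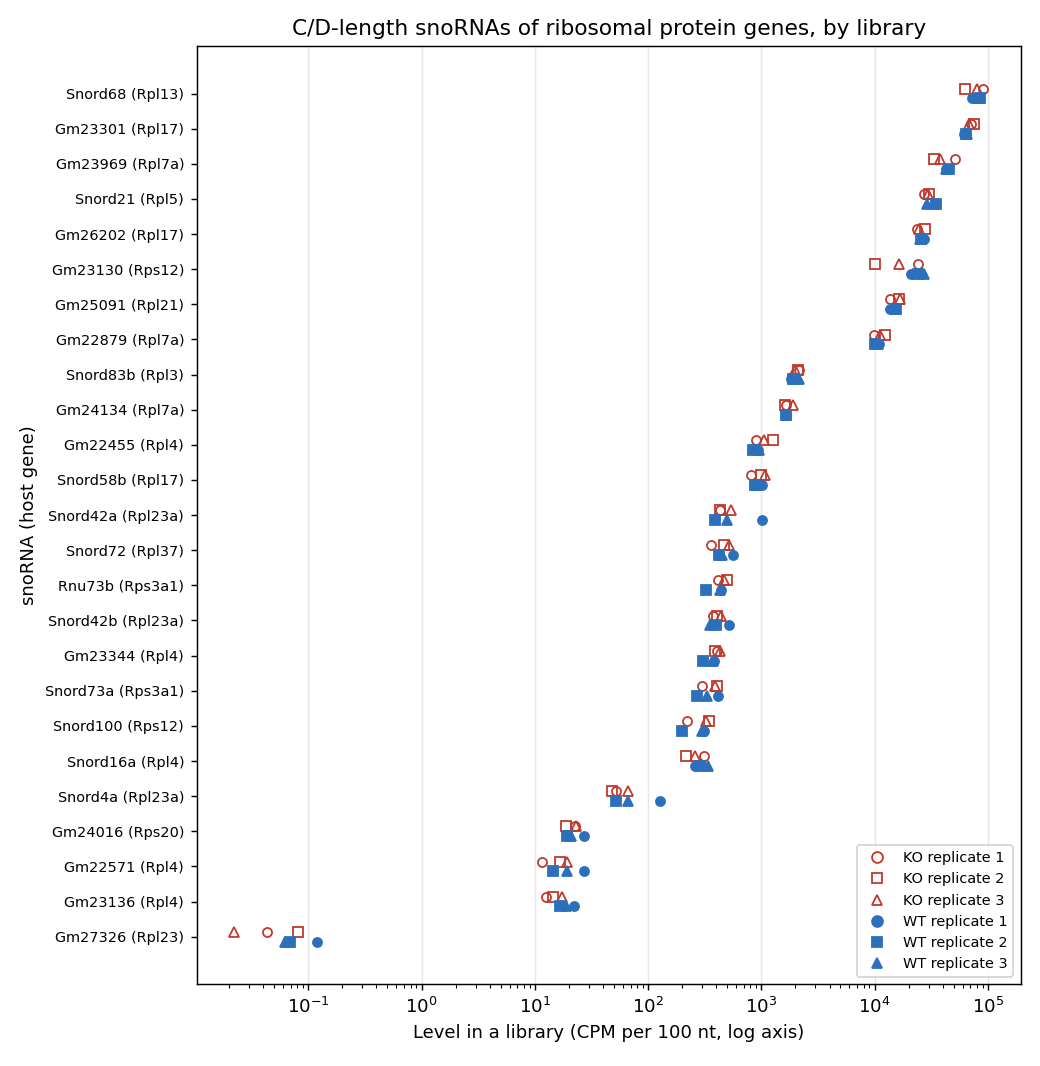
Level of each snoRNA in each library (x, CPM per 100 nt, log axis), with open red symbols for the 3 KO and filled blue symbols for the 3 WT libraries and a row per snoRNA, named with its host gene. Gm22077, with no read in 5 libraries, and the members not reported singly are left out. The libraries of both genotypes lie close together for most rows, while rows differ by up to several orders of magnitude, and WT replicate 1 stands to the right of the others for Snord42a and Snord4a.

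Some relatives from one host differed widely in level although they lie in one gene. In Rpl4, Gm22455 had 2.22 to 3.21 times the level per length of Gm23344 in the 6 libraries, and Gm23344 had 13.9 to 35.3 times that of Gm22571. Snord16a of the same gene had 11.7 to 25.2 times the level of Gm23136. One member of each of these sets thus took most of the set's reads in every library.

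Ratios in the other hosts ranged from large to small. Gm23301 of Rpl17 had 2.23 to 2.97 times the level per length of Gm26202 and 59.8 to 87.8 times that of Snord58b. The count of Snord58b is uncertain because of its near copy Gm22354, and so is the ratio to it. Gm22879 of Rpl7a had 5.94 to 7.62 times the level of Gm24134. Snord42a and Snord42b of Rpl23a stood at a ratio of 0.967 to 1.96, and Rnu73b and Snord73a of Rps3a1 at 1.07 to 1.39. Among the sets named here the ratio within a host thus ran from near 1 to 87.8, with no gap that parts the hosts: the highest ratio in Rpl23a, 1.96, lay close to the lowest of Gm22455 to Gm23344, 2.22.

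**Figure D3:**
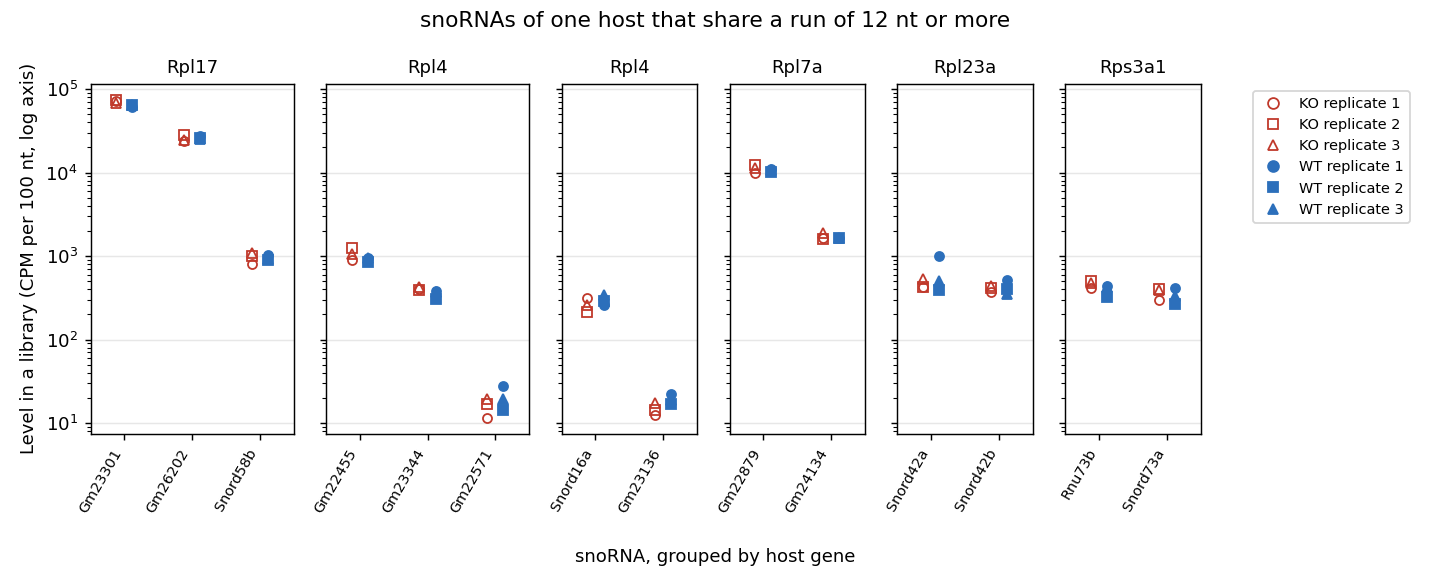
Levels per library (y, CPM per 100 nt, log axis) of snoRNAs that share a run of at least 12 bases, with 1 panel per set, headed by the host gene, open red symbols for KO and filled blue symbols for WT libraries. The members of a set are ordered by mean level. Gm23301 lies 59.8 to 87.8 times above Snord58b, whose count is uncertain, while Snord42a and Snord42b overlap.

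The ratios within these sets were compared between genotypes with exact two-sided permutation tests, 11 in all, which cannot go below p = 0.1 with 3 libraries against 3. The ratio of Gm23301 to Gm26202 was 2.97, 2.68 and 2.74 in KO libraries, all above the 2.23, 2.52 and 2.6 of WT libraries (exact p = 0.1, Benjamini-Hochberg adjusted p = 0.55). The ratio of Gm23344 to Gm22571 was 35.3, 23.5 and 22.1 in KO libraries, all above the 13.9, 21.4 and 19.5 of WT libraries (exact p = 0.1, adjusted p = 0.55). The other 9 ratios overlapped between the genotypes, with adjusted p of 0.733 to 1 in the exact permutation test.

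Between the genotypes no member passed the test. The labels were checked on the snoRNAs between Dlk1 and Dio3, the targeted locus, whose summed reads were 3, 2 and 2 in the libraries labelled KO, against 87, 106 and 94 for WT. Libraries had 45398303 to 53299322 counts. Precursor regions of 13 of 15 miRNA markers of mature and primitive blood cells had reads, with Mir486a and Mir486b at 0. The summed level of the 15 was 93.4 to 136 CPM in the KO and 60.2 to 137 CPM in the WT libraries. The erythroid list had 1.97 to 7.56 CPM in KO and 1.14 to 3.07 in WT, and the myeloid list 15.5 to 23.2 and 9.68 to 21.1. The lymphoid list had 13.7 to 30 and 9.44 to 19.8 CPM, and the megakaryocytic and stem list 61 to 80.7 and 39.9 to 94.1. These reads do not measure cell content, and protein-coding markers of the Lin- fraction were not analysed here. In edgeR's quasi-likelihood test with Benjamini-Hochberg adjustment, 1 of 624 tested features was called (0.160%), a snoRNA of the targeted locus, and 0 of the 29 members that passed the expression filter. DESeq2 also called 0 of the 29. At an unadjusted p under 0.05 there was 1 of the 29 members by edgeR and 2 by DESeq2. Of all 624 tested features there were 40 by edgeR (6.41%) and 46 by DESeq2.

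The fitted changes of the members were small and centred near 0. The 29 tested members had a median log2 fold change, KO over WT, of 0.01, with values from -0.49 to 0.31, beside a median of -0.08 for all 624 features. With the default TMM scaling 15 were higher and 14 lower in the KO libraries, where 40.9% of all features were higher. This split depends on the scaling: it was 24 higher and 5 lower with RLE size factors and 11 higher and 18 lower with library size alone, whose medians were 0.11 and -0.06 over the members and 0.02 and -0.16 over all features. The 95% interval of the log2 fold change took in 0 for 28 of 29 members and lay within 1 log2 unit of 0 for 25. The lower bounds of Snord4a (-1.34), Snord42a (-1.20), Gm23130 (-1.18) and Gm22571 (-1.06) went beyond it, so a fall by more than 2-fold was not excluded for these 4 by their intervals.

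**Figure D4:**
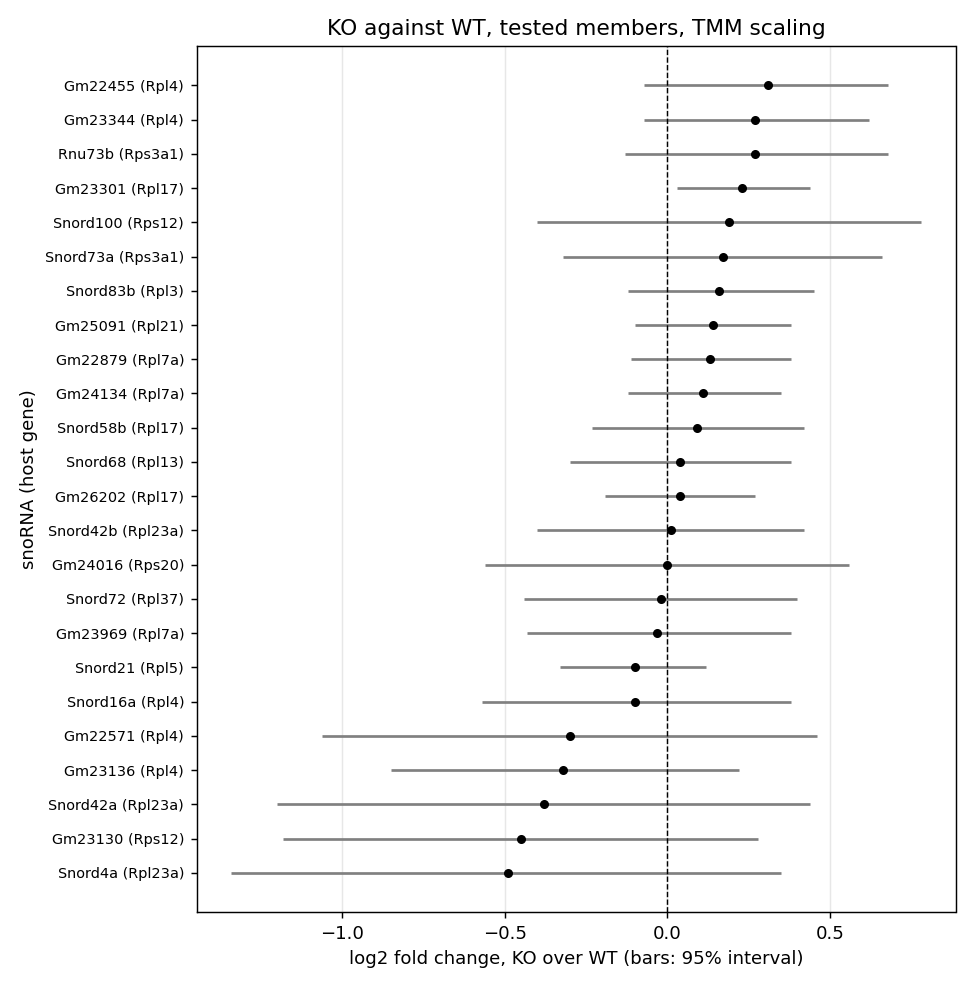
Log2 fold change, KO over WT, of the tested snoRNAs that are reported singly (x), with bars for the 95% interval and the dashed line at 0. All intervals but that of Gm23301 take in 0, and the widest belong to Snord4a, Snord42a, Gm22571, Gm23130 and Snord100.

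Gm23301 of Rpl17 was the member with the lowest p. It had 46171, 48595 and 43939 CPM in KO replicates 1 to 3 and 39707, 41851 and 42183 CPM in WT replicates 1 to 3. Every KO library lay above every WT library. The log2 fold change was 0.23 (SE 0.09, 95% interval 0.03 to 0.44). The edgeR adjusted p was 0.710. Without KO replicate 3 or WT replicate 3 the estimate was 0.35. Its relatives in the same gene had log2 fold changes of 0.04 (Gm26202, SE 0.10) and 0.09 (Snord58b, SE 0.14), with overlapping genotypes.

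Rpl4 gave the next lowest p-values. Gm22455 had 642, 893 and 757 CPM in the KO and 666, 596 and 681 CPM in the WT libraries, with KO replicate 1 inside the WT range (log2 fold change 0.31, SE 0.16, edgeR adjusted p = 0.730). Gm23344 had 277, 267 and 291 CPM in the KO and 260, 209 and 254 CPM in the WT libraries, without overlap (0.27, SE 0.15, edgeR adjusted p = 0.730). Their scarcer relative Gm22571 pointed the other way, with a log2 fold change of -0.30 (SE 0.32). Gm23136 and Snord16a of the same gene, relatives of each other, had -0.32 (SE 0.22) and -0.10 (SE 0.20). Without WT replicate 1, which had the most reads of Gm22571, that snoRNA's value turned to 0.06. Without KO replicate 1, Gm22455 had 0.49 (SE 0.17, edgeR adjusted p = 0.213, and 0.213 to 0.969 over the 6 fits that leave out a library), and without WT replicate 1, Gm23344 had 0.42. None of the 5 passed the test.

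Genotypes that did not overlap in CPM were found for 3 of 29 members, 2 with KO above (Gm23301 and Gm23344) and 1 with KO below. The shares of all 624 tested features were 15.2% (95), 2.72% (17) and 12.5% (78). Split by direction, the members' counts of 2 and 1 are too small to compare with these shares. None of the 3 counts is a result about the members.

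In the Rps genes no member passed the test either. Rnu73b of Rps3a1 had 295, 355 and 334 CPM in the KO and 314, 232 and 304 CPM in the WT libraries, so KO replicate 1 lay within the WT range (log2 fold change 0.27, SE 0.17, edgeR adjusted p = 0.730). Without WT replicate 1 its log2 fold change was 0.44. Gm23130 of Rps12 had 17864, 7431 and 12245 CPM in the KO and 15517, 18028 and 20303 CPM in the WT libraries. KO replicate 2 was the lowest of the 6 and KO replicate 1 lay among the WT values, with a coefficient of variation of 41.7% over the KO libraries. Its log2 fold change of -0.45 (SE 0.31, edgeR adjusted p = 0.733) moved to -0.12 when KO replicate 2 was left out, and leaving out KO replicate 1 gave -0.75 (SE 0.20, edgeR adjusted p = 0.183). Over the 6 fits that leave out a library its adjusted p was 0.183 to 0.969. Snord100, a guide of small-subunit rRNA in another intron of Rps12, had 0.19 (SE 0.25).

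In Rpl23a the lowest estimates rested on WT replicate 1. Snord42a had 280, 278 and 349 CPM in the KO and 655, 252 and 325 CPM in the WT libraries. Snord4a, a guide of small-subunit rRNA, had 37.3, 34.3 and 47.4 CPM in the KO and 90.8, 36.7 and 47.1 CPM in the WT libraries. In both, WT replicate 1 was far above the other 5 libraries, which overlapped. The log2 fold changes were -0.38 for Snord42a (SE 0.35) and -0.49 for Snord4a (SE 0.35), and without WT replicate 1 they were 0.21 and 0.06. Snord42b of the same gene was also highest in WT replicate 1, at 355 CPM against 245 to 305 CPM elsewhere, and had 0.01 (SE 0.17).

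The other most abundant members named here overlapped between the genotypes. Snord68, known as a guide of ribosomal RNA, had 78006, 54398 and 68437 CPM in the KO and 62314, 72679 and 70109 CPM in the WT libraries, with a log2 fold change of 0.04 (95% interval -0.30 to 0.38). Gm23969 of Rpl7a had 37808, 24718 and 27948 CPM in the KO and 31607, 33389 and 31721 CPM in the WT libraries (-0.03, interval -0.43 to 0.38). For both, the KO libraries spread on either side of all 3 WT libraries. Snord21 of Rpl5 had 25892, 28237 and 28101 CPM in the KO and 32918, 32430 and 27040 CPM in the WT libraries (-0.10, interval -0.33 to 0.12). Gm25091 of Rpl21 and the Rpl7a members Gm22879 and Gm24134 had 0.14 (SE 0.10), 0.13 (SE 0.10) and 0.11 (SE 0.10). Without KO replicate 1 these were 0.30, 0.29 and 0.21, and Gm24134 had 0.22 without KO replicate 2. Tested members outside the rule on named features had log2 fold changes from -0.02 to 0.19.

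Part of the spread between libraries followed the members' base composition and length. Over the 29 tested members, the deviation of a library's log2 CPM from the mean of the 6 libraries had a Pearson correlation with GC content of 0.59 in KO replicate 1 and -0.72 in KO replicate 3, and of -0.34 to 0.43 in the other 4 libraries. With length it was -0.38 to 0.52. The 20 members of up to 75 nt had median deviations of -0.15 to 0.11 and the 9 longer ones -0.21 to 0.10, the lowest in KO replicate 2. The part of composition and length in the comparisons was not tested.

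Other lists gave a setting for these values. The other C/D-length snoRNAs had medians near those of the members: 0.02 for 69 tested in other protein-coding genes, 0.04 for 42 in long non-coding genes, 0.10 for 11 in genes of translation factors and similar hosts such as Eef2, and -0.02 for the 5 left out by the rule. None of these lists had a call but the long non-coding one, with the 1 snoRNA of the targeted locus. The 21 tested H/ACA-length snoRNAs of ribosomal protein genes had a median log2 fold change of -0.29, with 21 of 21 lower in the KO libraries and none called (2 had an unadjusted p under 0.05 by edgeR). Without KO replicate 2 their median was -0.06 with 16 of 21 lower, and without WT replicate 1 it was -0.12 with 15 of 21 lower, while the members' median was 0.12 and 0.19. Without KO replicate 1 it was -0.46, with 15 of 21 lower. With RLE size factors 18 of 21 were lower, with a median of -0.18.

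**Figure D5:**
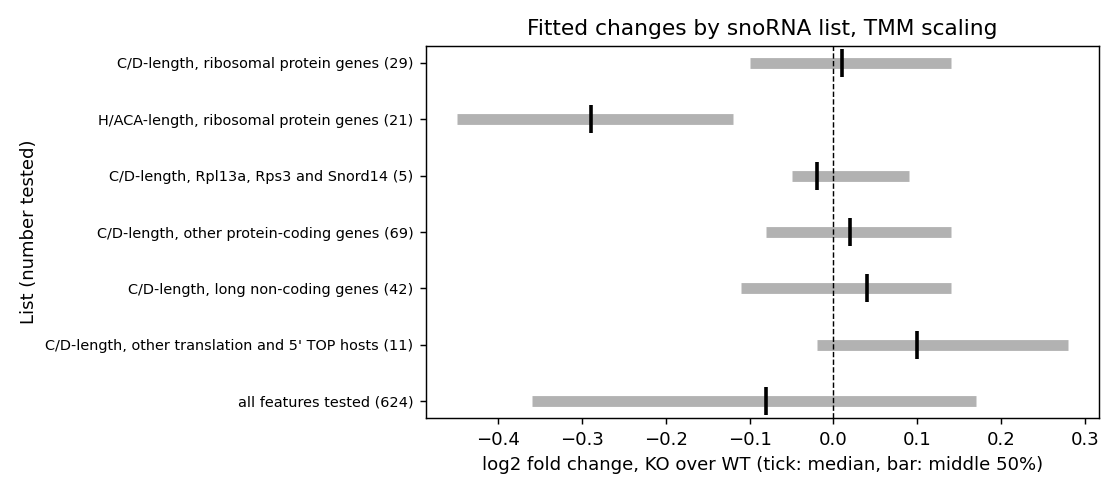
Fitted log2 fold changes, KO over WT (x), for the snoRNAs studied here, the comparison lists and all tested features, with a tick at the median, a bar over the middle 50% of the features and the number tested after each name. The C/D-length lists centre between -0.02 and 0.10, and the H/ACA-length list of ribosomal protein genes at -0.29.

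Within single hosts the length classes stood far apart in level. In Rpl5, Snord21 had 30961 CPM per 100 nt, and the H/ACA-length Gm22270 and Gm26387 had 4.57 and 5.95. In Rps12, Gm23130 and Snord100 had 20583 and 284, and Snora33 had 3.65. In Rpl21, Gm25091 had 15153 and Gm23202 had 0.085. Rpl23 was the exception, with 6.73 for Snora21 and 0.0662 for Gm27326, a member in which neither box was found. Of the H/ACA-length RNAs of these hosts, Gm26387 had the lowest estimate (-0.60, SE 0.29, edgeR adjusted p = 0.710), beside -0.10 (SE 0.09) for Snord21 of the same gene. The difference between these estimates was not tested.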

How the data were processed

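Small RNA was measured in 3 KO and 3 WT libraries. Per the labels' protocols, Trizol served for extraction and an NEB small RNA kit for the libraries, and PCR products of 170 to 370 bp were cut from a gel and sequenced. Per the submitters' processing notes, Trimmomatic 0.38, Bowtie2 2.3.4.1 and GRCm38 were used. How reads were counted (tool, annotation, strand, multiple matches) is not stated in the labels. The authors deposited whole read counts for each feature, and features with none in a library, absent from its file, were set to 0. Of 1823 features, 1822 matched GENCODE M21 by position.

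Counts were tested with edgeR 4.0.16 (R 4.3.3; TMM, minimum count 10, minimum total 15, quasi-likelihood, two-sided, Benjamini-Hochberg over all 624 tested features, threshold 0.05). SE is the log2 fold change over the root of F, and is approximate. The scripts were tested on simulated data. Alternatives were RLE, library size alone, DESeq2 1.42.0, other filters, a replicate block, summed copies and leaving out each library. Exact permutation tests used SciPy 1.17.1. Features were named if called, among the 10 highest levels or the 6 lowest p, in a host with 3 or more members, or with the largest non-overlapping difference in a direction. Some members are not reported singly here, though counts and sums include them. Members and lists were chosen with earlier results of these data known.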

Additional observations from a re-analysis of the deposited data

How the results depend on the processing

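No member was called under any of the 13 alternatives, the replicate block included (0 of 29 each, 0 of 31 with no filter). Over all features 1 was called in the fit described above, 13 with no filter, 0 with the replicate numbers as a block, and 0 to 1 with a library left out (0 without KO replicate 3 or any 1 WT replicate). The numbers share no stated animal or batch. Deviations of same-numbered libraries correlated at -0.13, 0.40 and -0.36, and those of differently numbered libraries at -0.46 to 0.59. The members' median with the block was 0.02. That median was 0.11 with RLE size factors and with DESeq2, and 0.05 to 0.19 with a library left out, but -0.06 with library size alone, which turned its sign. The log2 ratio of summed levels was -0.05, 0.12 with RLE effective library sizes and -0.12 to -0.00 with a library left out.

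Signs of single members turned, with no call. RLE size factors and DESeq2 gave 0.01 for Snord16a and Snord21 and 0.08 for Gm23969. Library size alone gave -0.03 for Gm26202 and Snord68 and -0.06 for Snord42b. Gm23969 was 0.04 with at least 50 counts in 3 libraries, 0.05 with copies summed and 0.03 with no filter. With a library left out the ranges that crossed 0 were -0.42 to 0.06 (Gm22571), -0.16 to 0.16 (Gm23969), -0.18 to 0.11 (Snord16a), -0.09 to 0.04 (Snord21), -0.56 to 0.21 (Snord42a), -0.01 to 0.26 (Snord42b), -0.66 to 0.06 (Snord4a) and -0.03 to 0.23 (Snord68). Those that did not were 0.24 to 0.49 (Gm22455), 0.12 to 0.29 (Gm22879), -0.75 to -0.12 (Gm23130), -0.37 to -0.12 (Gm23136), 0.25 to 0.35 (Gm23301), 0.26 to 0.42 (Gm23344), 0.12 to 0.22 (Gm24134), 0.16 to 0.30 (Gm25091), 0.03 to 0.17 (Gm26202), 0.23 to 0.44 (Rnu73b) and 0.09 to 0.28 (Snord58b). The cause was not tested. Depth limits only Gm27326 and Gm22077, since the other 29 had at least 3273 reads in all.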
